A study of Homo sapiens with 12 samples.

Results

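Transcript levels of NRF2 and its antioxidant target genes were examined in the established human melanoma cell line WM1366, in which NRAS is known to be mutated. The genes were chosen by symbol: NFE2L2, which codes for NRF2, and NQO1, HMOX1, GCLC, GCLM, TXNRD1, SRXN1, TALDO1, TKT and PGD. Of these 10, 9 had values among the 12931 genes listed for every library, and SRXN1 was not analysed here. The series concerns resistance that WM1366 xenografts acquired to combined inhibition of MEK and CDK4/6, and holds 12 RNA sequencing libraries in 3 groups of 4. The groups R1 and R2 (combination R1 and combination R2) carry the label of a diet holding MEK and CDK4/6 inhibitors, and the control group that of a control diet. What separates R1 from R2 is not stated in the sources used here. The treatment text of every library, control included, names palbociclib, a CDK4/6 inhibitor, at 0.1 µM and PD0325901, a MEK inhibitor, at 1 nM. The labels describe melanoma cells in culture medium, whereas the series design speaks of progressing tumours in host animals. All groups come from this single line, so they stand for 1 tumour background. Whether libraries of the same group stem from different tumours or cultures is not stated, so p-values measure only the spread between these libraries.

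NRF2 is a transcription factor that is held in check by KEAP1, an adaptor which presents it to the CUL3-RBX1 ubiquitin ligase for degradation. Oxidants and electrophiles modify KEAP1, and NRF2 then accumulates, pairs with a small MAF protein and binds antioxidant response elements in the DNA of its target genes. Its control is largely at the level of the protein, so the NFE2L2 transcript is not a readout of its activity. The targets code for enzymes that make glutathione, reduce thioredoxin, quinones and haem products, and supply NADPH through the pentose phosphate pathway. Melanocytes and melanoma cells make oxidants as by-products of pigment synthesis, and this set of enzymes is part of how they handle them.

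The core letters of the antioxidant response element, TGACNNNGC, were searched on both strands of the RefSeq promoter windows (GRCh38.p14, 250 bases before to 50 after each start site). Windows were held for 8 of the 9 measured genes, all but HMOX1, and 3 of these, GCLM, TXNRD1 and PGD, had a match in any window. GCLC, which like GCLM and TXNRD1 rose in both R1 and R2, had no match in its window. A match was held by 13.3% of all 35116 windows, and 19.7% of the 9317 listed genes with a window had it in any window. The windows with a match are shown because GCLM and TXNRD1 are among the genes that rose in R1 and R2, and PGD is among those that differ between R2 and R1. Each is printed on the strand of its gene from 250 bases before to 10 after the start site, with the matches in capitals. In GCLM the match reads TGACTAAGC on the opposite strand, with its first base 34 bases upstream of the start. TXNRD1 has TGACTTCGC 99 bases upstream and, on the opposite strand, TGACGGAGC 8 bases upstream of its start site 1. The window of its start site 2 has TGACAAAGC on the opposite strand 102 bases upstream. In PGD the match is TGACATTGC on the opposite strand, 201 bases upstream. No other motif was searched, so overlap of a match with other motifs was not examined. A match is a description of the letters, not a site of binding. Bases beyond these windows were not searched, so a gene without a match may still hold the element elsewhere. The windows of GCLM (chr1:93909421-93909680, minus strand), TXNRD1 start site 1 (chr12:104215529-104215788, plus strand), TXNRD1 start site 2 (chr12:104286782-104287041, plus strand) and PGD (chr1:10398814-10399073, plus strand) read as follows.
GCLM: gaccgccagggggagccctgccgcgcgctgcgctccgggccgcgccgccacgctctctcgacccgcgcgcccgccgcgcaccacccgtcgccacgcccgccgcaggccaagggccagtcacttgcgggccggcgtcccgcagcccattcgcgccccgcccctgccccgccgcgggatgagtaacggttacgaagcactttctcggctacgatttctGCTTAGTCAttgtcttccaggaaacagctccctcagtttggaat
TXNRD1 start site 1: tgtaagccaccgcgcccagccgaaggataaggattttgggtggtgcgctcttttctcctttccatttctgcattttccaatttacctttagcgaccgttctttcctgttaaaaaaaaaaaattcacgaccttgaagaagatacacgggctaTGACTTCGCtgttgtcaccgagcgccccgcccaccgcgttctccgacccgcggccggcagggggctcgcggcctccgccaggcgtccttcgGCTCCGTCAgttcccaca
TXNRD1 start site 2: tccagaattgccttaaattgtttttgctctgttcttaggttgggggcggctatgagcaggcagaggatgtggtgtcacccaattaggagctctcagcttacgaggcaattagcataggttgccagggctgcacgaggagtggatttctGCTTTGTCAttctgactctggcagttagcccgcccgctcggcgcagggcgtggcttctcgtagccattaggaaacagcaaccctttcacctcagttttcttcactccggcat
PGD: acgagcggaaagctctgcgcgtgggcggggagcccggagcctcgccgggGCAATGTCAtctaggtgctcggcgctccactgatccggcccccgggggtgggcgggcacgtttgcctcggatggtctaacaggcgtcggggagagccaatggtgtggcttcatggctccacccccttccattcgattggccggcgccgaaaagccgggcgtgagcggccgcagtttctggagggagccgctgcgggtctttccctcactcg

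The values are read counts per gene that the authors normalised by library size. Reads in the listed genes numbered 20003891 to 39009384 per library. HMOX1, the member with the fewest reads, had 259 to 296 reads per library in R1, 66 to 166 in R2 and 77 to 108 in control. Transcripts of the mitochondrial genome took 2.17% to 3.28% of reads in R1, 4.02% to 9.63% in R2 and 5.86% to 10.9% in control. Ribosomal protein transcripts took 8.69% to 10.7% in R1, 5.13% to 6.21% in R2 and 4.98% to 5.69% in control. Of 14 melanoma and melanocyte markers 5 were listed (MITF, PMEL, CSPG4, MCAM and AXL), and their summed value was 1494 to 1726 in R1, 2240.1 to 2498 in R2 and 2337 to 2615 in control. The others of the list were not analysed here. By level that sum was mostly AXL and MCAM, and the 5 genes did not move together: 2 rose and 3 fell in R1 against control. PMEL averaged 27.1 in R1, 8.81 in R2 and 5.32 in control, and CSPG4 87.0, 13.3 and 27.2, so both were highest in R1. Fibroblast and pericyte markers, 6 of 11 listed, summed to 514 to 669.7 in R1, 742 to 827 in R2 and 627 to 741 in control. Most of this sum was THY1 and COL1A1. Gene by gene, 1 rose and 2 fell in R2 against control. THY1 and RGS5 had their highest group mean in R2, and COL1A1 had it in control. PDGFRB, LUM and FAP were lowest in R2 by mean, at 0.331, 2.02 and 0.452, against 4.03, 6.66 and 0.475 for control libraries. The globins HBE1 and HBG2, 2 of 10 red blood cell markers, summed to 0.0309 to 0.190, 48.2 to 80.6 and 21.8 to 38.7 in R1, R2 and control, and KRT10, 1 of 6 keratinocyte markers, was at 23.03 to 34.7, 13.8 to 21.7 and 16.0 to 18.5. R2 replicate 2 stood apart for these genes: it was the highest of the 4 R2 libraries for 7 of the 9 and the highest of all 12 libraries for 6. Over all listed genes that library was the highest of the R2 group for 30.7%. Each R2 result below that rests on it is therefore given with and without it.

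Compared with control, R1 libraries had more mRNA for HMOX1, TXNRD1 and both subunits of glutamate-cysteine ligase, and less for TALDO1 and TKT, enzymes of the pentose phosphate pathway. R2 libraries also had more GCLC, GCLM and TXNRD1 mRNA, and more for PGD, but had HMOX1, TALDO1 and TKT in or near the control range. By limma with Benjamini-Hochberg adjustment over all listed genes, 4 of the 9 rose and 2 fell in R1 against control, where 43.8% of all genes changed (22.4% up and 21.4% down). In R2 against control 4 rose and 0 fell, where 28.4% of all genes changed (13.6% up and 14.8% down); the same count of 0 falls was given by edgeR and by DESeq2 on the recovered reads, and at an unadjusted p under 0.05 by limma. Between R2 and R1, 3 members were higher and 1 lower in R2, where 46.8% of all genes differed (22.8% up and 24% down). Ranges of the libraries did not overlap for 6, 5 and 4 of the 9 in these comparisons, beside 39.7%, 34.8% and 39.4% of all genes. The median log2 fold change of the 9 was 0.21 in R1 against control and 0.20 in R2 against control, beside 0.014 and 0.027 for all genes. Between R2 and R1 it was 0.084, beside -0.00095 for all genes. Both comparisons use the same 4 control libraries.

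**Figure D1:**
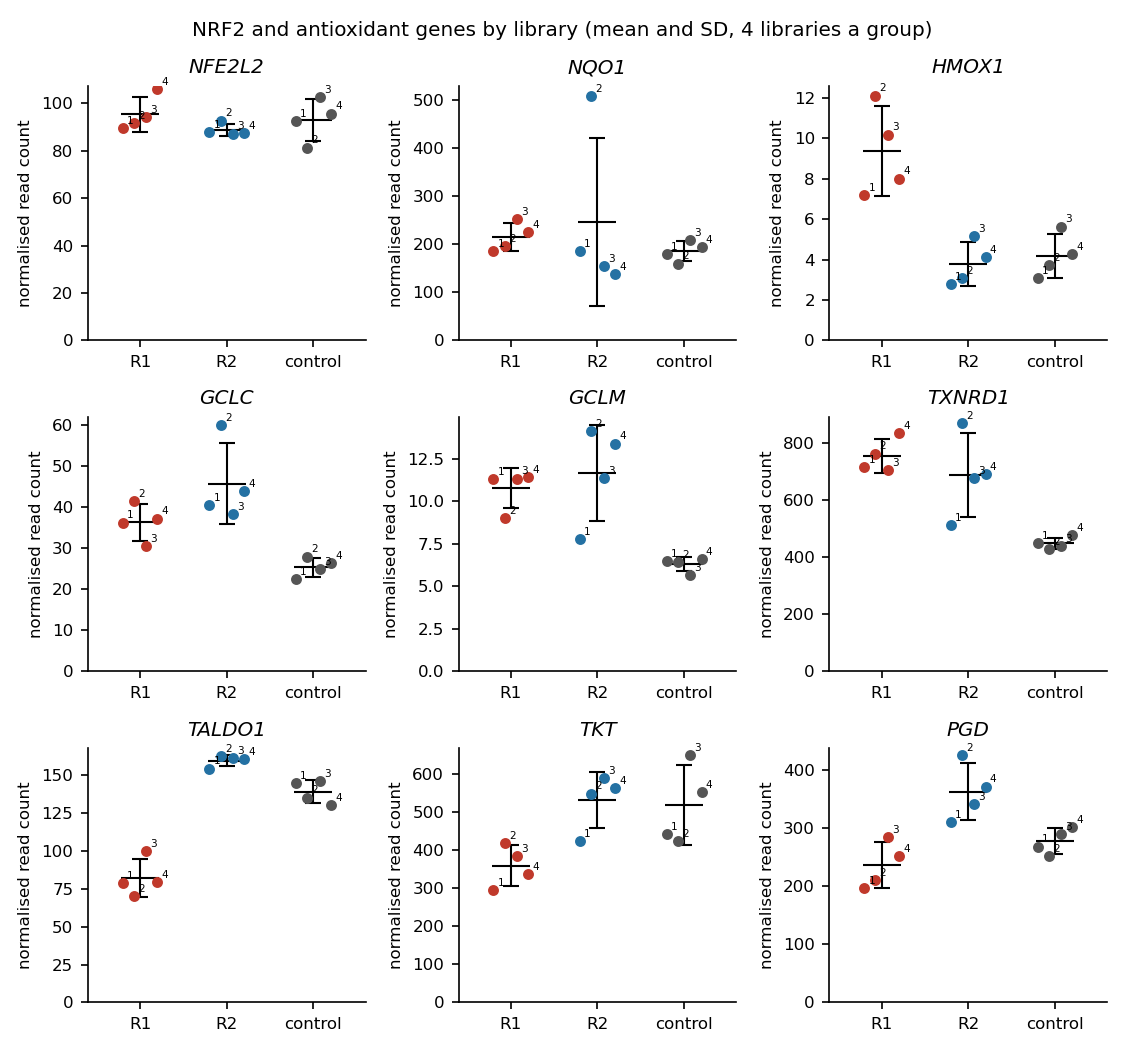
Normalised read count of each of the 9 measured genes in every library, with R1, R2 and control from left to right; points are libraries and bars are group means with SD (n = 4). The R1 and R2 points of GCLC, GCLM and TXNRD1 lie above all control points, TALDO1 is low in R1 alone, and NQO1 has 1 R2 library at 508.

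NFE2L2, the gene for NRF2 itself (chromosome 2, 177230303 to 177264727, GRCh38), was at 89.4, 91.7, 94.1 and 106 in R1 replicates 1 to 4. It was at 87.9, 92.7, 87.3 and 87.6 in R2 and at 92.6, 81.3, 103 and 95.7 in control. The control libraries span the values of all the others except R1 replicate 4, so the groups overlap. It did not pass the test in R1 against control (log2 fold change 0.036, 95% confidence interval -0.17 to 0.24, adjusted p = 0.779) or in R2 against control (-0.062, -0.26 to 0.14, adjusted p = 0.665). The intervals reach up to 0.24 and 0.14 on the log2 scale.

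GCLC, the catalytic subunit of glutamate-cysteine ligase, which carries out the rate-limiting step of glutathione synthesis (chromosome 6, 53497341 to 53545101), was at 36.2, 41.3, 30.4 and 37.2 in R1. Its values were 40.5, 60.0, 38.2 and 43.9 in R2 and 22.4, 27.9, 24.8 and 26.3 in control. Every R1 and every R2 library lay above every control library. The group means were 36.3 ± 4.50 in R1, 45.6 ± 9.86 in R2 and 25.4 ± 2.32 in control (SD, n = 4 each). GCLC rose in R1 (log2 fold change 0.50, SE 0.14, adjusted p = 0.0107) and in R2 (log2 fold change 0.82, SE 0.14, adjusted p = 0.00066), 1.43-fold and 1.80-fold by the ratio of means. Without R2 replicate 2, the highest library at 60.0, the R2 change was 0.68, adjusted p = 0.00121. R2 against R1 gave a log2 difference of 0.31 (95% confidence interval 0.0073 to 0.62, adjusted p = 0.0864), which did not pass, although it did without R1 replicate 2 (0.38, adjusted p = 0.04997). The same difference shrank to 0.18 (adjusted p = 0.267) without R2 replicate 2.

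GCLM, the modifier subunit that raises the activity of the same ligase (chromosome 1, 93885199 to 93909430), whose promoter match is printed above, was at 11.3, 9.04, 11.4 and 11.4 in R1. It was at 7.79, 14.2, 11.4 and 13.4 in R2 and 6.49, 6.43, 5.68 and 6.62 in control. Again no R1 or R2 library reached down into the control range, and R1 replicate 2 was the low library of its group. GCLM rose 1.71-fold in R1, to 10.8 ± 1.16, and 1.85-fold in R2, to 11.7 ± 2.84, against 6.30 ± 0.424 in control. The log2 fold changes were 0.73 (SE 0.17, adjusted p = 0.00304) in R1 and 0.81 (SE 0.17, adjusted p = 0.00238) in R2. The R2 change without R2 replicate 2 was 0.71, adjusted p = 0.0077. R2 and R1 were not told apart (0.084, 95% confidence interval -0.28 to 0.44, adjusted p = 0.708).

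The proportion of the catalytic to the modifier subunit was not told apart between the groups. The log2 ratio of GCLC to GCLM normalised counts averaged 1.70 ± 0.31 in R1, 1.93 ± 0.30 in R2 and 1.92 ± 0.15 in control. R1 minus control was -0.22, exact permutation p = 0.314, adjusted 0.411. R2 minus control was 0.0081, exact permutation p = 0.914, adjusted 0.914, and R2 minus R1 0.23, exact permutation p = 0.343, adjusted 0.411. The adjustment was over 6 ratio tests, and 4 libraries against 4 cannot give a p below 0.0286.

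TXNRD1, the cytosolic thioredoxin reductase, which passes electrons from NADPH to thioredoxin (chromosome 12, 104215779 to 104350307), was at 714, 762, 705 and 834 in R1. It was at 512, 868, 677 and 691 in R2 and 448, 429, 439 and 476 in control. The lowest library of R1 and the lowest of R2 both lay above the highest control library. TXNRD1 rose 1.68-fold in R1 (log2 fold change 0.75, SE 0.14, adjusted p = 0.000566) and 1.53-fold in R2 (log2 fold change 0.59, SE 0.14, adjusted p = 0.00491). With R2 replicate 2 left out the R2 change was 0.47, adjusted p = 0.0129. The R2 minus R1 difference of -0.16 had a 95% confidence interval of -0.45 to 0.14 (adjusted p = 0.371). The calls of GCLC, GCLM and TXNRD1 against control held in all 12 fits that left out 1 library each, in both comparisons.

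HMOX1, haem oxygenase 1, which splits haem into biliverdin, iron and carbon monoxide and which BACH1 represses (chromosome 22, 35381096 to 35394207), was at 7.18, 12.1, 10.2 and 8.001 in R1. R2 had 2.79, 3.07, 5.18 and 4.13 and control 3.09, 3.74, 5.63 and 4.25. All R1 libraries were above all R2 and control libraries, and the R2 and control ranges overlap. HMOX1 rose 2.24-fold in R1 (log2 fold change 1.08, SE 0.22, adjusted p = 0.00123), with means of 9.37 ± 2.22 in R1 and 4.18 ± 1.08 in control. In R2 it averaged 3.79 ± 1.09 and did not pass (-0.13, 95% confidence interval -0.60 to 0.34, adjusted p = 0.7). R2 was lower than R1 by a tested difference (log2 fold change -1.21, SE 0.22, adjusted p = 0.000488).

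Markers of other cell types were set beside the HMOX1 levels. Of 10 endothelial markers 4 were listed, mostly TIE1 by level, and they summed to 375 to 499 in R1, 126 to 157 in R2 and 133 to 172 in control, so that R1 was the high group as for HMOX1. Gene by gene, 3 of the 4 rose in R1 and 2 fell in R2 against control, where HMOX1 did not fall. EGFL7 was at 0 to 0.0291 in R2 and 2.84 to 5.11 in control. PECAM1 was at 1.55 to 4.96 in R1 and 0.842 to 3.96 in control, which overlap. Of 12 leukocyte and macrophage markers only CSF1R, the receptor for the growth factor of macrophages, was listed, at 1.39 to 6.19 in R1, 0.349 to 0.688 in R2 and 1.12 to 3.18 in control. Its R1 and control ranges overlap, and its R2 libraries all lay below both, unlike those of HMOX1. The part of these markers in the HMOX1 result was not tested. In bulk libraries of this kind more cells of a type and more RNA per cell cannot be told apart. The genes with the pattern most like that of HMOX1, by root mean square difference of centred log2 values over the 12 libraries, were PSMB8 (0.195), PFDN2 (0.200) and PITPNC1 (0.205). HMOX1 was the only member whose spread over the libraries was large enough for that measure (SD 0.64 on the log2 scale, minimum 0.5).

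NQO1, which reduces quinones with NADH or NADPH (chromosome 16, 69709401 to 69726560), was at 186, 197, 252 and 227 in R1. In R2 it was at 186, 508, 155 and 138, and in control at 180.2, 160.2, 209 and 194. A single R2 library, replicate 2, stood at 3.19 times the mean of the other 3 R2 libraries (159 ± 24.4). NQO1 passed the test in neither comparison with control (R1 0.21, 95% confidence interval -0.43 to 0.85, adjusted p = 0.592; R2 0.20, -0.45 to 0.84, adjusted p = 0.667). Left without that library, R2 minus control was -0.22, adjusted p = 0.255, on the other side of 0 and not past the threshold. R2 minus R1 was then -0.43, adjusted p = 0.0216, against -0.014 (adjusted p = 0.974) with all libraries.

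**Figure D2:**
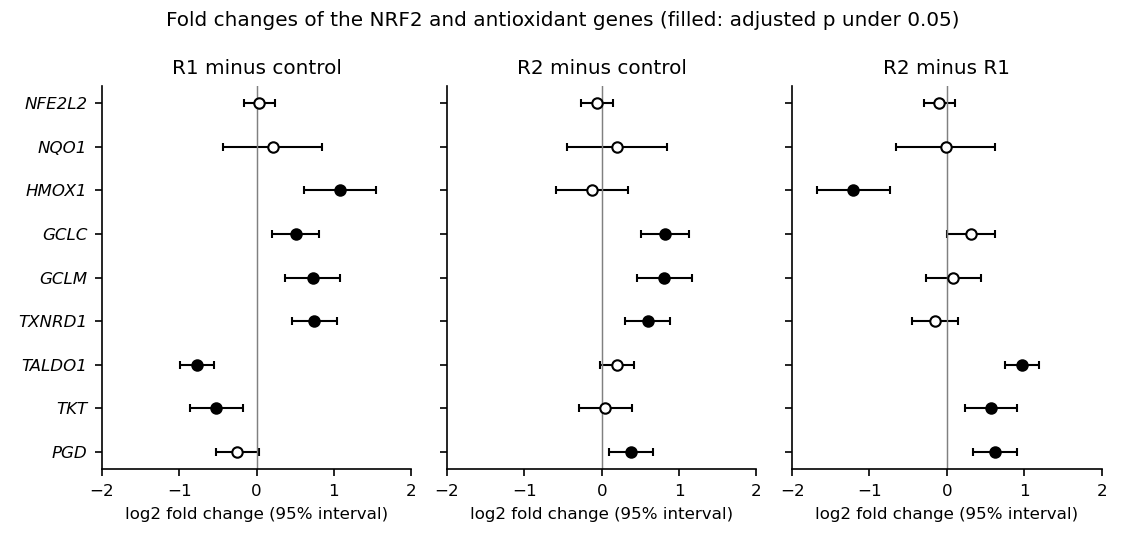
Log2 fold changes of the 9 genes with 95% confidence intervals for R1 against control, R2 against control and R2 against R1. Filled points passed the test: GCLC, GCLM and TXNRD1 lie to the right of 0 in both comparisons with control, HMOX1 to the right in R1 alone, and TALDO1 is at -0.77 in R1 and 0.20 in R2.

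For each of the pentose phosphate enzymes TALDO1, TKT and PGD the R1 group had the lowest mean. TALDO1, transaldolase, which with transketolase links the pathway back to glycolysis (chromosome 11, 747464 to 765012), was at 78.6, 69.98, 99.6 and 79.3 in R1. R2 libraries were at 154, 162, 161 and 160.4 and control libraries at 145, 135, 146 and 130.0. All 4 R1 libraries lay below every other library, and R2 lay above control without overlap. TALDO1 fell in R1 to 0.589 of the control mean (log2 fold change -0.77, SE 0.10, adjusted p = 4.75e-05). In R2 the difference from control was 0.20 (95% confidence interval -0.022 to 0.42, adjusted p = 0.166), which did not pass. R2 was 1.95-fold higher than R1 (log2 fold change 0.97, SE 0.10, adjusted p = 6.34e-06).

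TKT, transketolase (chromosome 3, 53224712 to 53256022), was at 295, 418, 385 and 338 in R1, the first of them the lowest of all libraries. It was at 424, 549, 589 and 564 in R2 and 443, 424, 651 and 552 in control. All R1 libraries lay below all control libraries, and R1 replicate 2 came within a few counts of the lowest R2 and control libraries. TKT fell in R1 (log2 fold change -0.52, SE 0.16, adjusted p = 0.0159), with means of 359 ± 54.0 in R1 and 518 ± 105 in control. That call was lost without R1 replicate 1 (adjusted p = 0.053) or without control replicate 3 (adjusted p = 0.055). R2 was 1.48-fold higher than R1 (log2 fold change 0.57, SE 0.16, adjusted p = 0.00911) and did not differ detectably from control (0.048, 95% confidence interval -0.29 to 0.39, adjusted p = 0.853).

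PGD, 6-phosphogluconate dehydrogenase, the later NADPH-making step of the oxidative branch (chromosome 1, 10399064 to 10420511), was at 197, 210.4, 285 and 252 in R1. It was at 311, 427, 342 and 372 in R2 and 268, 252, 291 and 302 in control. Every R2 library was above every control library, while R1 and control overlap. PGD rose 1.30-fold in R2 against control (log2 fold change 0.38, SE 0.13, adjusted p = 0.0455), but this call was near the threshold and held in 4 of the 12 fits without 1 library, with an adjusted p of up to 0.122. It was lost without R1 replicate 4, without R2 replicate 2, 3 or 4, and without any 1 of the control libraries; without R2 replicate 2 it was 0.29, adjusted p = 0.122. R2 was 1.54-fold higher than R1 (log2 fold change 0.62, SE 0.13, adjusted p = 0.00151). R1 against control did not pass (-0.25, 95% confidence interval -0.53 to 0.033, adjusted p = 0.141), although it did without R1 replicate 3 (adjusted p = 0.042).

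**Figure D3:**
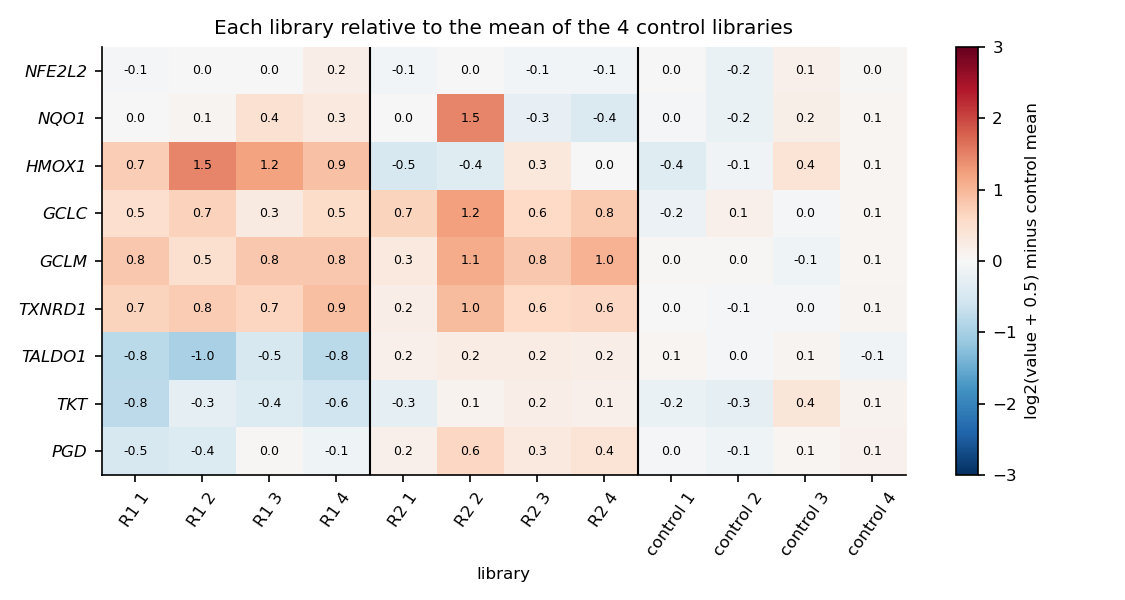
Log2(value + 0.5) of the 9 genes in each of the 12 libraries minus the mean of the 4 control libraries, in colour and as numbers, with R1, R2 and control columns from left to right. R2 replicate 2 is the highest R2 library for 7 of the 9 genes, and all 4 R1 libraries lie below control for TALDO1.

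Other genes of the pathway were taken from 7 lists of 164 genes, of which 134 were measured. In R1 against control, 39 rose and 21 fell, with a median log2 fold change of 0.13 beside 0.014 for all genes. In R2 against control, 22 rose and 22 fell, with a median of -0.029 beside 0.027 for all genes. Between R2 and R1, 24 were higher and 48 lower in R2, beside 22.8% and 24% of all genes. The median there was -0.20, beside -0.00095 for all genes. The counts of each list stand beside shares of all genes of 22.4% up and 21.4% down in R1 and 13.6% up and 14.8% down in R2, and lists with counts near these, such as haem and iron, show nothing particular to them.

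Thioredoxin and peroxiredoxin genes, which reduce protein disulphides and peroxides, showed the largest median of the lists in R1 against control. Of 21 measured 10 rose and 4 fell in R1 (median 0.42), and 3 rose and 2 fell in R2 (median -0.077). TXN, thioredoxin itself, was at 309 ± 80.0 in R1, 145 ± 15.3 in R2 and 179.7 ± 6.55 in control, and rose in R1 (0.75, adjusted p = 0.000997). PRDX1, a peroxiredoxin, averaged 720.2 ± 87.4, 473 ± 71.0 and 373 ± 11.3 in R1, R2 and control, and rose in R1 (0.94, adjusted p = 2.75e-05), with R2 against control at an adjusted p of 0.0511. PRDX4, a peroxiredoxin of the endoplasmic reticulum, rose in R1 (0.94, adjusted p = 1.62e-05). TXN2, mitochondrial thioredoxin, fell in R1 (-0.66, adjusted p = 0.000175), and TXNRD2, the mitochondrial reductase, fell in R2 (-0.88, adjusted p = 0.000423).

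Of 32 measured genes of glutathione synthesis and use, 11 rose and 4 fell in R1 (median 0.32) and 7 rose and 7 fell in R2 (median 0.049). GSR, which regenerates reduced glutathione, was at 52.9 ± 6.63 in R1, 48.6 ± 6.32 in R2 and 34.95 ± 1.67 in control, and rose in both (R1 0.58, adjusted p = 0.00124; R2 0.46, adjusted p = 0.00969). GSTO1, an omega-class glutathione transferase, rose in R1 (1.42, adjusted p = 1.06e-06), to 156 ± 23.7 against 57.8 ± 6.57 in control. MGST1, a membrane-bound glutathione transferase, fell in R1 (-1.46, adjusted p = 9.81e-07) and R2 (-0.83, adjusted p = 0.000248), to 47.8 ± 5.65 and 74.4 ± 13.0 against 132 ± 10.5 in control. GGT1, which splits extracellular glutathione, fell in R1 (-0.66, adjusted p = 0.0101) and R2 (-2.78, adjusted p = 8.54e-08). GPX1, a glutathione peroxidase, fell in both as well (R1 -0.50, adjusted p = 0.00981; R2 -0.69, adjusted p = 0.00181).

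Among 20 measured pentose phosphate and NADPH genes, 6 rose and 4 fell in R1 and 3 rose and 3 fell in R2. RPIA, which converts ribulose to ribose 5-phosphate, rose in R1 (0.96, adjusted p = 1.20e-05), where TALDO1 and TKT of the same branch fell. IDH2, which makes NADPH in mitochondria, fell in R2 (-1.96, adjusted p = 0.000821), to 1.90 ± 0.951 against 8.44 ± 1.80 in control.

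Among 17 measured quinone, aldehyde and conjugation enzymes, 3 rose and 1 fell in R1 and 2 rose and 3 fell in R2. NQO2, a quinone reductase related to NQO1, was at 25.4 ± 5.85 in R1, 23.1 ± 1.85 in R2 and 15.0 ± 1.14 in control. It rose in R1 (0.72, adjusted p = 0.00122) and R2 (0.60, adjusted p = 0.00654). OSGIN1, a target of NRF2 that restrains growth, was at 6.27 ± 1.72 in R1, 6.41 ± 1.78 in R2 and 2.46 ± 0.320 in control. It rose in R1 (1.17, adjusted p = 0.000338) and R2 (1.20, adjusted p = 0.00048). AKR1C3, an aldo-keto reductase, rose in R1 (2.04, adjusted p = 0.000931), although reads of near-identical paralogues can be split between copies, so this value is uncertain.

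Of 18 measured haem and iron genes, 4 rose and 4 fell in R1 and 4 rose and 2 fell in R2. BLVRB, a biliverdin reductase, rose in R1 (0.82, adjusted p = 0.000108) and R2 (0.83, adjusted p = 0.000174), to 42.7 ± 7.73 and 42.5 ± 3.54 against 23.7 ± 1.64 in control. PGRMC1, a haem-binding membrane protein, rose in R1 (1.08, adjusted p = 2.86e-05) and R2 (0.93, adjusted p = 0.000179). HMOX2, the constitutive haem oxygenase, rose in R2 (0.53, adjusted p = 0.00362), where HMOX1 did not. BLVRA, the other biliverdin reductase, fell in R2 (-1.71, adjusted p = 0.00421), to 5.01 ± 3.51 against 14.6 ± 3.01 in control.

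Of 17 measured regulators and partners of NRF2, 3 rose and 4 fell in R1 and 2 rose and 4 fell in R2. KEAP1 was at 114 ± 20.8 in R1, 87.0 ± 11.9 in R2 and 95.9 ± 9.87 in control and passed in neither comparison with control. It was lower in R2 than in R1 (-0.38, adjusted p = 0.0394). MAFG, a small MAF partner, rose in R1 (0.68, adjusted p = 0.000383). NFE2L3, the NRF2 relative NRF3, rose in R2 (0.82, adjusted p = 8.19e-05), to 97.7 ± 7.54 against 55.4 ± 6.02 in control. GSK3B, a kinase that promotes NRF2 degradation, fell in R1 (-0.51, adjusted p = 0.00197), and RBX1, the ring subunit of the CUL3 ligase, rose in R1 (0.62, adjusted p = 0.00278). In R2 RBX1 fell (-0.41, adjusted p = 0.0421), a call that held only without R1 replicate 2, R1 replicate 3 or R2 replicate 2 among the 12 fits without 1 library, with an adjusted p of up to 0.103. Of the other fixed genes BACH1, SQSTM1, SLC7A11, TXNIP, ME1, FTL, SOD2 and CAT passed in no comparison. FTH1 fell in R1, near the threshold (-0.52, adjusted p = 0.0494), and did not pass in R2 against control (0.37, adjusted p = 0.186). It was higher in R2 than in R1 (0.88, adjusted p = 0.00249). GPX4 passed only in R2 against R1 (0.37, adjusted p = 0.0318). Superoxide and hydrogen peroxide enzymes, 9 measured, had 2 risen in R1, and 1 risen and 1 fallen in R2.

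**Figure D4:**
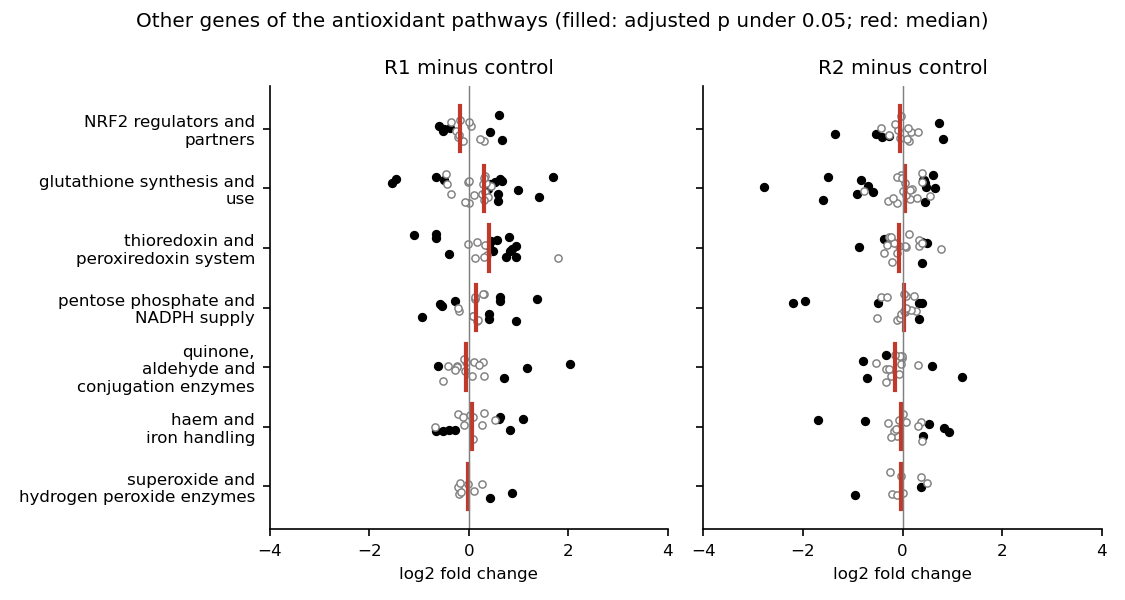
Log2 fold changes of the measured genes of the 7 pathway lists in R1 against control (left) and R2 against control (right), with filled points past the test, open points not past it and a red bar at the list's median. The thioredoxin and peroxiredoxin list has 10 risen and 4 fallen genes and a median of 0.42 in R1, and a median of -0.077 in R2.

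Genes that lie within 1 Mb of each member on either side were counted as a description of its neighbourhood, with positions for 12200 of the 12931 genes. They are read against the 43.8% of all genes that changed in R1 and the 28.4% in R2, and several of the counts are near those shares. Between R2 and R1 the share of all genes was 46.8%, with 22.8% higher and 24% lower in R2. Around TALDO1, 1 up and 27 down of 36 neighbours changed in R1 against control (median log2 fold change -0.70), and between R2 and R1 25 of 36 were higher and 3 lower in R2 (median 0.64). TALDO1 itself moved the same way as these neighbours. Around TXNRD1 5 of 15 neighbours rose in R1 (median 0.31) and 5 of 15 fell in R2 (median -0.26), while TXNRD1 rose in both. Around GCLC the counts were 2 up and 1 down of 9 in R1, and 3 of 9 rose in R2. Around GCLM they were 2 up and 5 down of 12 in R1 and 3 up and 3 down of 12 in R2. Around HMOX1 3 of 9 fell in R1, where HMOX1 rose. Around NFE2L2 6 of 9 rose in R1 (median 0.67), while NFE2L2 did not pass. Around TKT the counts were 5 up and 6 down of 23 in R1, and around PGD 4 up and 1 down of 18 in R2. What neighbouring genes share with a member was not tested.

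**Figure D5:**
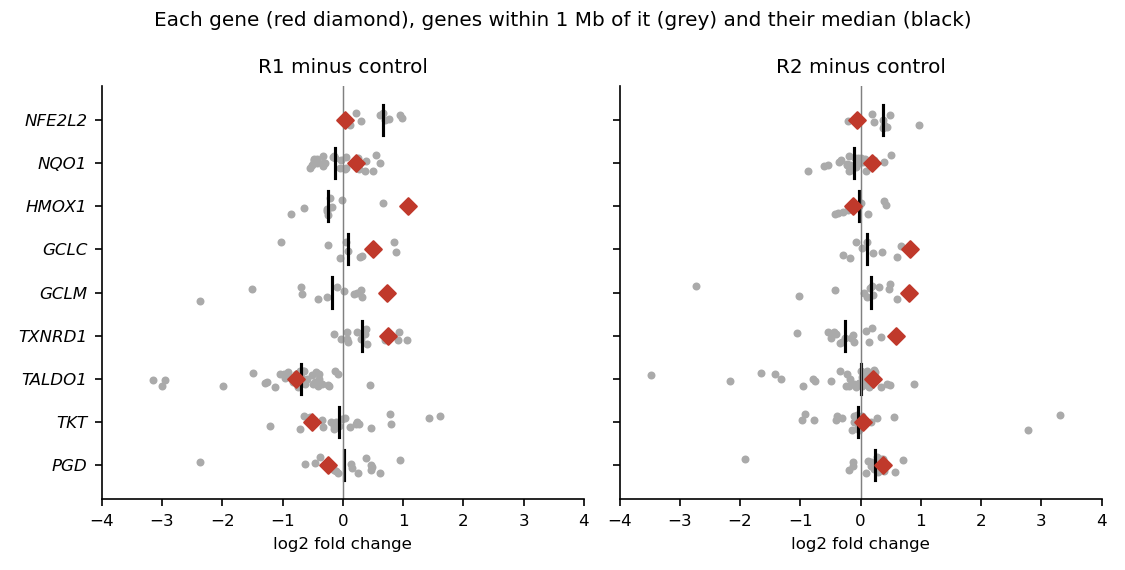
Log2 fold changes of the listed genes within 1 Mb of each member, as grey points, with their median as a black bar and the member itself as a red diamond, for R1 against control and R2 against control. Around TALDO1 27 of 36 neighbours fell in R1, with TALDO1 at -0.77.

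Annotated genes overlap 4 of the members, among them the antisense RNAs NQO1-AS1, GCLC-AS1 and TXNRD1-AS1 and the gene EID3. The pseudogene RPL18AP3, which lies within TXNRD1, is the only 1 of the 6 overlapping genes with values of its own here. The library kit (TruSeq RNA v2) does not mark strand, so reads of a gene and of an overlapping antisense RNA cannot be told apart.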

How the data were processed

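Total RNA of 12 WM1366 libraries, 4 per group, was purified on Qiagen RNeasy columns, and libraries came from the TruSeq RNA v2 kit, per the labels. The submitters' processing notes name STAR, edgeR and the build GRCh38, without versions. The deposited values are a normalised read count signal per gene symbol, which the authors scaled by library size. In every library 100% of the values were whole multiples of 1 read, within 0.001 reads, so reads were recovered. Depth was 20003891 to 39009384 reads per library, so 3 reads correspond to values of 0.0728 to 0.158.

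Values were compared as log2(value + 0.5) with limma 3.58.1 in R 4.3.3 (trended empirical Bayes), in 1 fit with 3 group means, with p-values two-sided and adjusted by Benjamini-Hochberg over 12931 genes. A gene rose or fell at an adjusted p under 0.05. Fold changes on this scale understate those of low genes, and fold values are ratios of means. On the recovered reads edgeR 4.0.16 called 2964 genes up and 2681 down in R1 against control, 1725 and 1839 in R2 against control, and 2886 and 3102 in R2 against R1. DESeq2 1.42.0 was a further alternative.

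Named were all members, 17 fixed pathway genes, and the 3 called genes with the smallest p of each list and comparison with a mean of at least 5. Some that the rule took are not reported here, among them 1 fixed gene and its ratio. Members and lists were chosen with earlier results of these data known. Whether host reads were separated is not given in the sources used here. SRXN1 was not analysed here. Library pairs within a group differed by more than counting noise, so all 12 counted as separate libraries. That does not show them to be independent samples, which was not tested. By chi-square per degree of freedom of the reads, control libraries 1 and 2 (16.2) and 3 and 4 (11.4) were the closest. The other control pairs were at 44.6 to 77.9.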

Additional observations from a re-analysis of the deposited data

Results flagged for a closer look

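Within groups, 3 of 27 sets of 4 libraries held 1 library far from the other 3, where chance gives about 1 in 20. NQO1 stood at 508 in R2 replicate 2, against 138 to 186 in the other R2 libraries. NFE2L2 stood at 92.7 in the same library, against 87.3 to 87.9. That is only 1.06 times the mean of the other 3, and lies within the control range of 81.3 to 103. GCLM stood at 9.04 in R1 replicate 2, against 11.3 to 11.4 in the other R1 libraries.

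The effect of R2 differed from that of R1, by the test of the difference itself, for 4 genes: HMOX1 (-1.21 on the log2 scale, R2 minus R1), TALDO1 (0.97), TKT (0.57) and PGD (0.62).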

How the results depend on the processing

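Over 23 settings, 575 of the member values kept their direction and side of the threshold, 11 lost and 8 gained a call, and 21 changed sign, all of them values past no threshold under either setting. Array weights gave NFE2L2 0.0054, NQO1 -0.0069 and HMOX1 0.13 for R2 minus control, and 2911 genes up there. NQO1 for R2 minus R1 became 0.19 by edgeR, 0.20 by DESeq2, 0.034 with equal medians and 0.10 without R1 replicate 2 and R2 replicate 3, where TKT in R2 became -0.0050. With 1 library left out, values ranged from -0.027 to 0.085 for NFE2L2 in R1, from -0.13 to -0.013 in R2, from -0.22 to 0.40 for NQO1 in R2 and from -0.43 to 0.19 in R2 minus R1. They ranged from -0.28 to 0.0098 for HMOX1 in R2, -0.040 to 0.17 for TKT in R2 and -0.016 to 0.26 for GCLM in R2 minus R1. Members fallen ranged from 1 to 3 in R1 and 1 to 2 in R2 minus R1, and the GCLC to GCLM difference of R2 from -0.12 to 0.094, with -0.019 at a pseudocount of 0.1. A minimum mean of 10 drops HMOX1, GCLM and other low genes, so fewer genes were tested. It left 2 members up in R1 and 0 down in R2 minus R1 (edgeR and DESeq2 had 1). Among the genes still tested, 1932 were up in R1, and 1109 up and 1233 down in R2. GCLC in R2 against R1 also passed with equal medians (adjusted p = 0.0463). TALDO1 in R2 was called with array weights or only the groups compared. Of the calls of other named genes, 1960 were kept and 78 lost. HMOX1 has the fewest reads, so depth limits it most.

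Replicate numbers were not taken to pair the libraries: correlations of same-numbered deviations ran from -0.31 to 0.39 for R1 and control and from -0.22 to 0.085 for R2 and control. For R2 and R1 all 4 were positive (0.114, 0.108, 0.0742 and 0.133), with 3 of 4 libraries closest to their own number, but 1 lay under 0.1. With the replicate block GCLC passed in R2 against R1 (adjusted p = 0.0301), so that 4 members were higher there, with 2966 genes up and 2832 down in R1, 1810 and 1923 in R2, and 3024 and 3138 in R2 against R1.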
